A study of Mus musculus with 6 samples.

Results

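Interferon-stimulated genes are the antiviral and antimicrobial genes that cells switch on when interferon reaches them. A set of 45 genes under this name was examined in the colon of mice whose gene for the histone deacetylase HDAC2 was targeted in the intestinal epithelium. The set also holds 2 genes of interferon receptor chains, Ifnar1 and Ifngr1, which are counted in all shares of the members. The members were named by gene symbol, and each probe set of the array whose symbol in the platform annotation was a member was taken. Of the 45 genes, 41 had at least 1 probe set of their own, 62 probe sets in all, and 3 further probe sets carried a member's symbol together with another gene's. No probe set of its own was found for Isg15, Oas1g, Ifi44 and Tgtp1. The array series held 18193 genes with a probe set of their own, of which 10916 passed a filter on signal and were tested. Of the members, 32 were tested and 9 lay under that filter.

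The series comprised 3 colon samples of HDAC2 KO mice and 3 of control mice, each hybridised to its own Affymetrix array and summarised as log2 RMA signal. In the knockout a floxed Hdac2 allele was deleted by a villin-Cre transgene, so that recombination was directed to the intestinal epithelium and not to other cells of the gut wall, and mice of both groups were of a background mixed from CD-1, 129 and C57BL/6. The mice were untreated and fed a normal diet, and the labels state neither their age nor their sex, nor whether the controls carried the floxed allele or the Cre. The sample description of the HDAC2 KO arrays names HDAC1 and HDAC2, whereas their titles and genotype name HDAC2 alone. The source labels number 1 mouse for each array, the titles number replicates, and the p-values measure the spread between these arrays, whatever its source.

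Interferons act through cell surface receptors. Type I interferons use a receptor that contains IFNAR1, and interferon gamma uses one that contains IFNGR1. Receptor-bound Janus kinases activate transcription factors of the STAT family. After type I interferon, a complex that contains STAT2 and IRF9 binds the interferon-stimulated response element (ISRE), and interferon gamma acts mainly through the gamma-activated sequence (GAS). In the gut, epithelial cells and the leukocytes beneath them both express interferon-stimulated genes, and a resting level is present without infection.

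Promoters of many such genes carry the ISRE, and 5 are shown because the genes were called in HDAC2 KO colon and hold an ISRE core, which is GAAA, any 2 bases and GAAA again, on either strand. The capitals mark the ISRE core, which reads TTTC, 2 bases and TTTC where it lies on the opposite strand, neighbouring matches can overlap, and each window runs from 250 bases before the annotated start to 50 bases after it. The sequences are from RefSeq, build GRCm38.p6, read 5′ to 3′ on the strand of the gene, and a window near the start can hold transcribed bases. Ifit1 lies on the plus strand at chr19:34640639-34640938, Gbp2 on the plus strand at chr3:142620413-142620712, Oas1a on the minus strand at chr5:120907476-120907775, Rsad2 on the minus strand at chr12:26456403-26456702 and Trim30a on the minus strand at chr7:104465144-104465443.
Ifit1: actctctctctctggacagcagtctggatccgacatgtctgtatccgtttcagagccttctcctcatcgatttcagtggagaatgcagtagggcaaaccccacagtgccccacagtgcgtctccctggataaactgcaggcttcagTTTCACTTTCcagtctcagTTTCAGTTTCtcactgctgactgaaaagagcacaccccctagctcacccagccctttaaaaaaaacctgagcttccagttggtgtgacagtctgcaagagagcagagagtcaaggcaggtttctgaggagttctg
Rsad2: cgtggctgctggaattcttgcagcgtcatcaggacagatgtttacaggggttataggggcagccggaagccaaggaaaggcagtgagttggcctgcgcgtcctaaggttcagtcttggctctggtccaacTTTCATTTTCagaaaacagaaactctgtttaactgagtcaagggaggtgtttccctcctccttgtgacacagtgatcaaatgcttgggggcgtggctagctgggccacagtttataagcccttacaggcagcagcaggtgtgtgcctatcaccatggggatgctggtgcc
Oas1a: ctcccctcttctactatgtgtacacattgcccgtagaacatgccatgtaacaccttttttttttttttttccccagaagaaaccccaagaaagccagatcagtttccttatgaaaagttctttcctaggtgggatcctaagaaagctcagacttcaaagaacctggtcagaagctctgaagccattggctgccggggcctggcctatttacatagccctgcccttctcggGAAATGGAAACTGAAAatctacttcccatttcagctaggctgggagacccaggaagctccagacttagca
Gbp2: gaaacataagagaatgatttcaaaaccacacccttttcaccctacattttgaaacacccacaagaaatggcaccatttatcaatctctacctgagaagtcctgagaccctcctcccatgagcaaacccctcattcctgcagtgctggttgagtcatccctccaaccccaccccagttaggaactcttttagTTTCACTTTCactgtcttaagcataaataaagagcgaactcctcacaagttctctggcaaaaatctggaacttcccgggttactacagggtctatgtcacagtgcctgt
Trim30a: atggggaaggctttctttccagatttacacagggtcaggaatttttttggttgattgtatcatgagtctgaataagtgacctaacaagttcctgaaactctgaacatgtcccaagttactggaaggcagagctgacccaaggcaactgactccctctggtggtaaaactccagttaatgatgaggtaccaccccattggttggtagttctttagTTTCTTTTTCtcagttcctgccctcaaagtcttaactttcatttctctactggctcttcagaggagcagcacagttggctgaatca

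In these windows the Ifit1 promoter held ISRE cores from base -104 to -95 and from -85 to -76, Rsad2 from -120 to -111 and Gbp2 from -59 to -50. Oas1a held 2 overlapping cores, from -20 to -11 and from -14 to -5. The first 4 genes were higher in HDAC2 KO, whereas Trim30a, which was lower, also held a core, from -36 to -27. Promoter windows were found for 35 members, of which 19 (54.3%) held the ISRE core, against 3.99% of 27025 genes in the same table. The core was present in 4 of the 6 members with a window that were called higher, in the 1 called lower and in 9 of the 20 not called. All 6 GTPase genes with a window held it, compared with 12 of 23 type I effectors, 1 of 4 transcription factors and 0 of 2 receptors. The GAS letters, TTCNNNGAA, were found in 11 members (31.4%), against 9.55% of all genes, and the search counted matches that overlap an ISRE core, as in Bst2 and Ifitm3. No window was found for the called genes Ifi27l2a, Iigp1, Parp14 and Zbp1, so Trim30a was the only lower gene that could be examined. Presence of the core thus went with genes called higher, with Trim30a and with genes that were not called. A match is a description of the letters and not of binding.

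**Figure D1:**
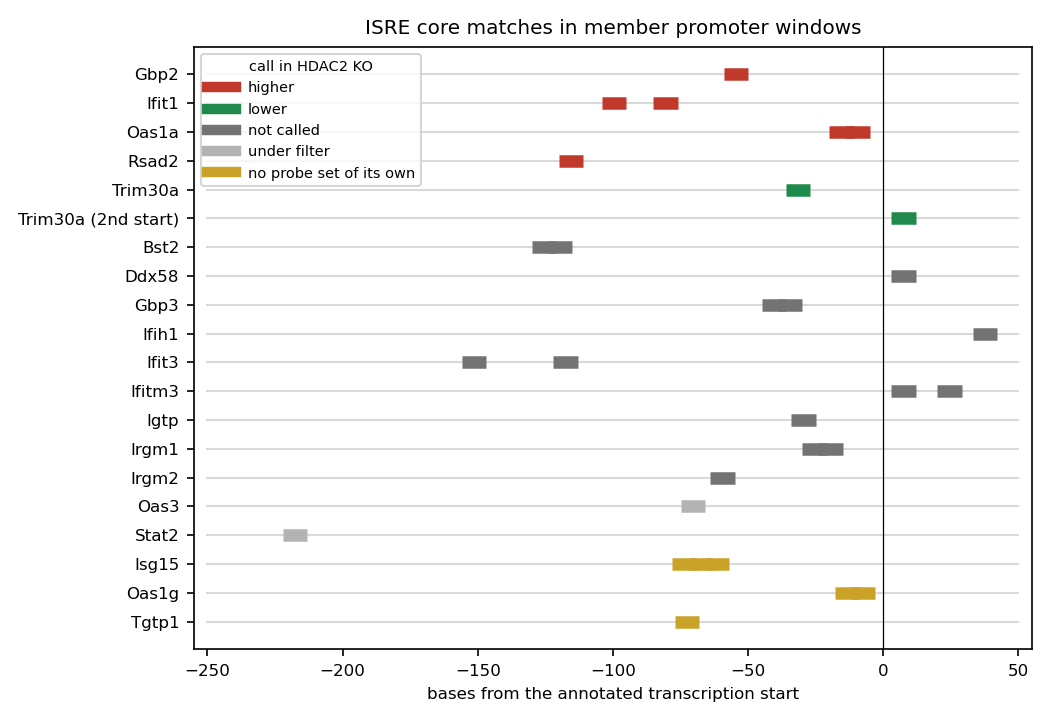
ISRE core matches (bars) in the promoter windows of the members that hold at least 1, plotted by distance in bases from the annotated transcription start and coloured by the call in HDAC2 KO colon. Of the 35 members with a window, 19 held the core. Genes called higher and not called appear among them, and so does Trim30a, the only gene called lower that had a window.

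Of the 32 members tested, 7 were higher and 4 lower in HDAC2 KO colon, and 21 were not called at a limma adjusted p under 0.05. The higher genes were Ifit1, Zbp1, Rsad2, Oasl2, Irf7, Oas1a and Gbp2, and the lower ones Ifi27l2a, Iigp1, Trim30a and Parp14. Among all 10916 genes tested, 17.9% were called, 9.68% higher and 8.2% lower. The members' shares of 34.4% called, 21.9% higher and 12.5% lower stood above that background, an excess that was not tested. Members were chosen with earlier results of these data known. Ifit1 and Ifit3 passed the filter through the HDAC2 KO arrays and Trim30a through the control arrays. No share given here is therefore read as a trait of the members. Without the filter, 6 members were called higher and 3 lower, and 1386 of all 18193 genes were called. The median difference was 0.07 on the log2 scale over the 32 members and 0.0032 over all genes tested. The 3 HDAC2 KO arrays lay above the 3 control arrays for 14 members (43.8%), against 19.9% of all genes, and below them for 5 members (15.6%), against 17.7%. Together 19 of the 32 showed no overlap, against 37.7% of all genes, and 22 of the 32 were higher in sign, against 51.4%. The change was therefore mixed in direction, with the larger number of members higher and the largest difference, that of Ifi27l2a, a fall. Of the 11 called members, 6 were called under each gene-level alternative in which they were tested: Ifit1, Zbp1, Rsad2, Irf7, Ifi27l2a and Iigp1. In the fit of all probe sets with the replicate number as a block, 4 probe sets of members were called. Not all of these 6 genes therefore kept a call there. The number of calls over all genes depended on single arrays. It was 1952 with every array, 1274 when HDAC2 KO replicate 1 was left out, 1130 when control replicate 1 was and 1276 when control replicate 2 was. Counts of members were 5 to 10 higher and 3 or 4 lower when single arrays were left out.

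**Figure D2:**
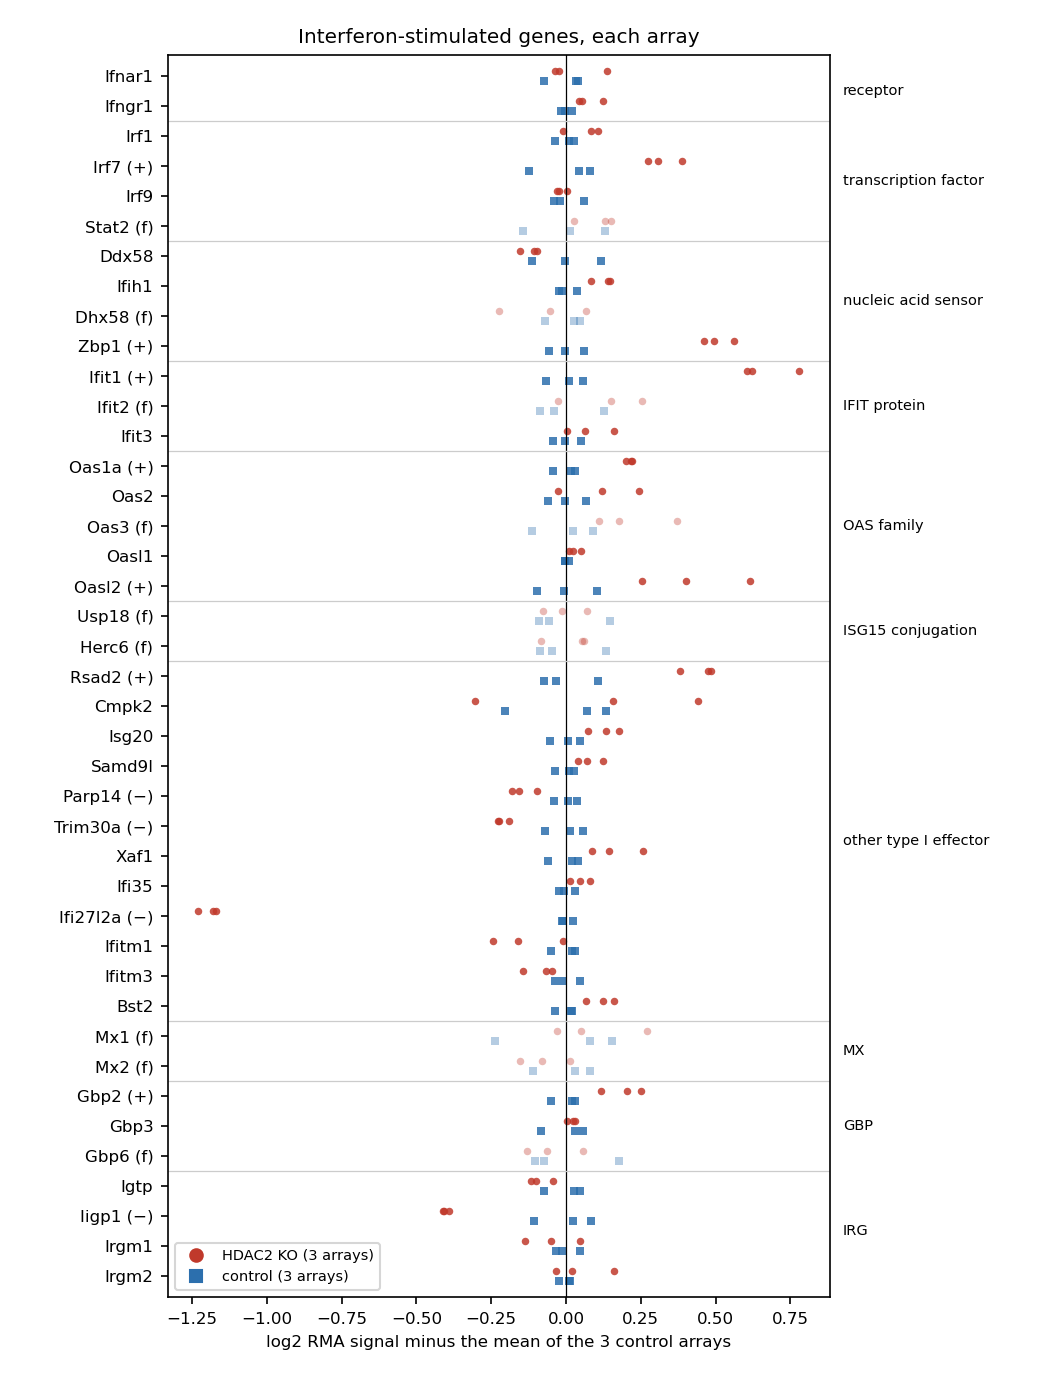
Each of the 41 members with a probe set of its own, as log2 RMA signal minus the mean of the 3 control arrays, with HDAC2 KO arrays as circles above control arrays as squares and roles named at the right. Plus and minus signs mark members called higher and lower, and (f) with pale symbols marks the 9 members under the signal filter. The 3 circles of Ifit1, Zbp1 and Rsad2 lie to the right of all their squares and those of Ifi27l2a far to the left.

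In a bulk sample, fewer cells of a type and less RNA per cell cannot be told apart, and markers of several cell types differed between the groups. Of 8 pan-leukocyte markers all 8 passed the filter and fell, their summed linear signal lying between 3456 and 3607 in HDAC2 KO colon and between 6111 and 6291 in control colon. B cell and plasma cell markers were lower in 7 of 7 tested cases, with sums of 8604 to 9540 in HDAC2 KO and 12273 to 12435 in control, and T cell and NK cell markers in 3 of 4, with sums of 1002 to 1085 in HDAC2 KO and 1607 to 1637 in control, 9 more of them being under the filter. Of 7 macrophage and dendritic cell markers 1 rose and 2 fell, with sums of 8408 to 8666 in HDAC2 KO and 8587 to 8940 in control. Of 6 tested plasmacytoid dendritic cell markers 2 fell, and these cells are known for making type I interferon. The sums of this list were 15998 to 16627 in HDAC2 KO and 17020 to 17410 in control. They lay above those of the pan-leukocyte markers, so they are not read as a measure of plasmacytoid dendritic cells. The defining marker of these cells, Siglech, differed by -0.22 (SE 0.073, limma adjusted p = 0.0789). Both mast cell markers tested and all 4 adipocyte markers tested fell. Epithelium markers, all 12 of which passed the filter, included 2 that rose and 0 that fell, with sums of 120439 to 122587 in HDAC2 KO and 116269 to 117212 in control. Of 8 smooth muscle markers 4 rose, of 7 endothelium markers 3 fell and of 7 fibroblast markers 1 fell. Genes typical of tissue outside the epithelium were thus measured on these arrays although the source label names epithelium. Among all genes tested, 9.68% were called higher and 8.2% lower. Lists with only 1 or 2 genes called in a direction, such as those of epithelium and fibroblasts, are too small to set against these shares, and nothing is read from their counts. The part of these cell types in the values of the interferon-stimulated genes was not tested.

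**Figure D3:**
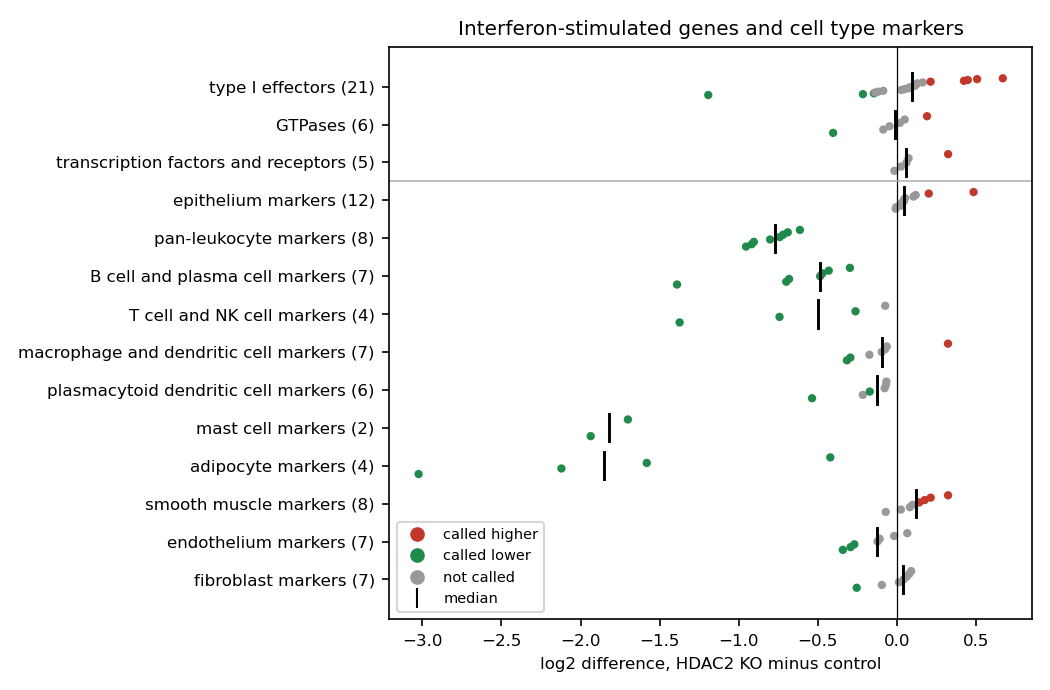
Log2 difference, HDAC2 KO minus control, of each tested gene (points) in 3 classes of interferon-stimulated genes and, under the line, in marker lists of cell types, with the median of each list as a vertical bar and the number of genes tested in parentheses. Type I effectors spread to both sides of 0 with a median of 0.10, whereas all 8 pan-leukocyte markers lie left of 0.

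The targeted gene was lower. Hdac2 read 10.21, 10.12 and 10.24 on the HDAC2 KO arrays, against 10.40, 10.37 and 10.43 on the control arrays, a difference of -0.21 (SE 0.040, limma adjusted p = 0.00893). This was a 1.16-fold fall, so most of the signal of the Hdac2 probe set remained. The position of the Hdac2 probe set within the gene, and so whether it falls in the part removed by Cre, was not examined. The call was lost with cross-matching probe sets (suffix _s_at or _x_at, whose probes match more than 1 transcript) removed (adjusted p = 0.0884) and with each probe set tested on its own (adjusted p = 0.0768). Hdac1, the close relative, rose by 0.15 (SE 0.039, limma adjusted p = 0.0321). Without the filter Hdac1 was not called (limma adjusted p = 0.0925), and the other alternatives were not examined for it.

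At the receptors, no change was called. Ifngr1, the ligand-binding chain for interferon gamma, differed by 0.07 (SE 0.036, limma adjusted p = 0.21), and its 3 HDAC2 KO arrays lay above the 3 control arrays. Ifnar1, a chain of the type I receptor, differed by 0.03 (SE 0.056, limma adjusted p = 0.796) with overlapping groups. From a list of other pathway genes, the partner chains Ifnar2 and Ifngr2 differed by -0.03 and -0.01 and the kinases Jak1 and Tyk2 by -0.07 and 0.01, with adjusted p between 0.264 and 0.937. In that list of receptors and signalling genes 1 of 11 tested was called, against 17.9% of all genes tested. The called gene was Socs3, an inhibitor of Janus kinase signalling that is induced by several cytokines. Socs3 read 7.57, 7.37 and 7.70 on the HDAC2 KO arrays, against 6.88, 6.85 and 6.80 on the control arrays, and was 1.63-fold higher (0.70, SE 0.076, limma adjusted p = 0.000606). Its groups were far apart relative to their spread. Among the receptor genes, Ifnar1, Ifnar2 and Ifngr2 differed by less than the SD of either group. Ifngr1 differed by more than its SDs, 0.045 in HDAC2 KO and 0.019 in control.

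The interferon genes themselves were at low signal. All 9 interferon ligand genes with a probe set of their own, among them Ifnb1 and Ifng, lay under the filter, with summed linear signals of 316 to 333 in HDAC2 KO and 299 to 323 in control. Without the filter none of the 9 was called, the adjusted p being 0.0612 for Ifnz and 0.562 or more for the others. The 3 HDAC2 KO arrays lay above the 3 control arrays for Ifnz, with means of 6.06 in HDAC2 KO and 5.84 in control.

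Among the transcription factors, Irf7 rose. IRF7 is itself induced by interferon and amplifies production of type I interferon. Irf7 read 8.55, 8.47 and 8.44 on the HDAC2 KO arrays, against 8.24, 8.21 and 8.04 on the control arrays. The groups did not overlap, and the difference was 0.32 (SE 0.059, 1.25-fold, limma adjusted p = 0.00736). Irf1, which acts downstream of interferon gamma, and Irf9, the DNA-binding partner of STAT2, differed by 0.06 and -0.02 with overlapping groups (adjusted p = 0.371 and 0.816). Stat2 lay under the filter at a mean of 6.48 in HDAC2 KO and 6.38 in control. Its second probe set went the other way without overlap, at 5.58 in HDAC2 KO and 5.73 in control. That difference of -0.15 was not called (limma adjusted p = 0.284 in the fit of all probe sets). Of 13 tested sensing adaptors and interferon-inducing factors of a separate list, 1 was called, against 17.9% of all genes tested. That gene, Irf2bp2, encodes a corepressor that partners IRF2, and it fell by 0.27 on the log2 scale (SE 0.036, limma adjusted p = 0.00156).

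Of the sensors of foreign nucleic acid, Zbp1 rose. It encodes a protein that binds Z-form nucleic acid and can trigger necroptosis. Zbp1 read 8.41, 8.48 and 8.37 on the HDAC2 KO arrays, against 7.97, 7.91 and 7.86 on the control arrays. Every HDAC2 KO array stood clear of every control array, and the gene was 1.42-fold higher (0.51, SE 0.044, limma adjusted p = 0.000184). A second Zbp1 probe set differed by 0.32 and was also called when all 45037 probe sets were tested without the filter (adjusted p = 0.0289). No RNA helicase gene of this group was called. Ifih1, encoding MDA5, differed by 0.12 with HDAC2 KO arrays all above control arrays but missed the threshold (SE 0.036, limma adjusted p = 0.0506), and Ddx58, encoding RIG-I, differed by -0.12 with overlapping groups (adjusted p = 0.199). All 3 Ddx58 probe sets were lower in HDAC2 KO in sign, between -0.12 and -0.02. Dhx58, encoding LGP2, lay under the filter at 6.07 in HDAC2 KO and 6.14 in control.

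The IFIT genes lie in a cluster on chromosome 19 and encode proteins that bind viral RNA or block its translation. Ifit1 read 7.26, 7.42 and 7.24 on the HDAC2 KO arrays, against 6.65, 6.69 and 6.57 on the control arrays. The gap between the groups was several times the spread within them, and Ifit1 was 1.59-fold higher (0.67, SE 0.056, limma adjusted p = 0.00015), the largest rise among the members tested. Its control mean of 6.64 lay just under the filter level of 6.66, where RMA compresses differences, so the gene passed through the HDAC2 KO arrays. Without the filter it was called with an adjusted p of 0.00106. Ifit3 differed by 0.08 with overlapping groups (SE 0.048, adjusted p = 0.329). Ifit2, under the filter, had means of 6.45 in HDAC2 KO and 6.32 in control, with an adjusted p of 0.474 in the test without the filter. The members of this cluster thus differed in whether a change was called, and their differences were not tested against each other.

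The OAS genes encode enzymes that make oligoadenylates, which activate the ribonuclease RNase L, and relatives that lack this activity. Of 4 tested, Oas1a and Oasl2 rose, too few genes to set against the 9.68% of all genes tested that were called higher. Oas1a read 11.07, 11.09 and 11.09 on the HDAC2 KO arrays, against 10.90, 10.89 and 10.83 on the control arrays, a small difference with little spread (0.21, SE 0.034, 1.16-fold, limma adjusted p = 0.00439). Oasl2 read 7.47, 7.33 and 7.69 on the HDAC2 KO arrays, against 7.06, 7.17 and 6.98 on the control arrays. Its groups did not overlap but its HDAC2 KO values were spread widely (0.42, SE 0.090, 1.34-fold, limma adjusted p = 0.0148), and leaving out control replicate 1 or 3 ended the call (adjusted p = 0.054 and 0.0663). Oas2 and Oasl1, the neighbour of Oasl2 on chromosome 5, differed by 0.11 and 0.03 (adjusted p = 0.303 and 0.603). Oas3, under the filter, had means of 5.72 in HDAC2 KO and 5.50 in control, and its groups did not overlap. Close relatives of Oas1a lie beside it, and how far its probe set distinguishes them was not analysed here.

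The ubiquitin-like modifier ISG15 is conjugated to proteins by enzymes that include HERC6 in mice and is removed by USP18. The probe set listed for Isg15 is also listed for Gm9706, so its signal belongs to neither gene alone. It averaged 8.01 ± 0.032 on the HDAC2 KO arrays, with 7.99 as the lowest and 8.05 as the highest value, against 7.55 ± 0.094 on the control arrays (SD, n = 3 each), which read 7.53, 7.65 and 7.47. The groups did not overlap, and the signal was called higher in the fit of all probe sets (0.46, SE 0.060, limma adjusted p = 0.00665). Usp18 and Herc6 were under the filter, with differences of -0.01 and 0.01 at the probe set that stood for each gene. For Herc6 the value depended on the probe set, since 4 probe sets ranged between -0.01 and 0.15. A probe set of nearly equal signal read 6.39 in HDAC2 KO and 6.24 in control without overlap, and was not called (0.15, adjusted p = 0.235 in the fit of all probe sets).

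Rsad2 rose. It encodes viperin, a radical SAM enzyme that makes a chain-terminating nucleotide. Rsad2 read 8.62, 8.63 and 8.52 on the HDAC2 KO arrays, against 8.06, 8.25 and 8.11 on the control arrays. The groups were clearly separate, and the gene was 1.36-fold higher (0.45, SE 0.055, limma adjusted p = 0.00107). All 3 Rsad2 probe sets were higher, by 0.24 to 0.45, and 2 of them were called in the fit of all probe sets. Cmpk2, the neighbouring gene on chromosome 12, encodes a mitochondrial nucleotide kinase. It varied most among the members tested within HDAC2 KO, with 6.99, 6.53 and 7.28 on those arrays, against 6.97, 6.63 and 6.91 on the control arrays. Replicate 2 was the lowest Cmpk2 array of each group, and the difference of 0.10 (SE 0.17, limma adjusted p = 0.749) was within that spread.

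Ifi27l2a fell the most. It encodes a small hydrophobic membrane protein of the ISG12 family. Ifi27l2a read 8.58, 8.53 and 8.59 on the HDAC2 KO arrays, against 9.78, 9.75 and 9.75 on the control arrays. Both groups were tight and lay far apart, and the signal was 2.29-fold lower (-1.19, SE 0.034, limma adjusted p = 3.57e-07). Over the alternatives its difference stayed between -1.20 and -1.17. Its single probe set gives no second measurement. The direction was that of the pan-leukocyte markers, whose median was -0.77, and also that of other lists, such as mast cell (-1.82) and adipocyte markers (-1.85). Medians of epithelium, smooth muscle and fibroblast markers were positive, at 0.04 to 0.12. A link of Ifi27l2a to any of these cell types was not tested. Its direction was opposite to that of Ifit1, Rsad2 and Zbp1.

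Trim30a and Parp14 also fell, by less. Trim30a, a tripartite motif protein that restrains NF-kB signalling in mice, read 6.59, 6.55 and 6.56 on the HDAC2 KO arrays, against 6.79, 6.84 and 6.71 on the control arrays (-0.22, SE 0.041, limma adjusted p = 0.00894). Its HDAC2 KO values were tight and all below the control values. Its HDAC2 KO mean of 6.57 lay under the filter level, so it passed through the control arrays, and without the filter it was called with an adjusted p of 0.0342. Its second probe set differed by -0.21 with overlapping groups and was not called (adjusted p = 0.301 in the fit of all probe sets). It is flanked by Trim30c and Trim30d, and a probe set listed for both Trim30a and Trim30d differed by -0.10 (adjusted p = 0.451 in the fit of all probe sets). Parp14, a mono-ADP-ribosyltransferase, read 8.99, 8.96 and 9.05 on the HDAC2 KO arrays, against 9.18, 9.15 and 9.10 on the control arrays. The groups did not overlap, but this call was the least stable of the 11 (-0.15, SE 0.038, limma adjusted p = 0.0345). The replicate block ended it (adjusted p = 0.0625), and among other settings it was also lost without HDAC2 KO replicate 1 or 2 or control replicate 1 or 2 (adjusted p between 0.0625 and 0.135), and with the mean of both Parp14 probe sets, where the difference shrank to -0.04.

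The remaining type I effectors were not called. Xaf1, an apoptosis-promoting factor, differed by 0.16 (SE 0.051, limma adjusted p = 0.0637), the exonuclease gene Isg20 by 0.13 (SE 0.042, adjusted p = 0.0725) and Bst2, encoding tetherin, which holds budding virus at the cell surface, by 0.12 (SE 0.038, adjusted p = 0.0689). In these 3 genes and in Samd9l, a translation-inhibiting antiviral factor (0.08, adjusted p = 0.193), all HDAC2 KO arrays lay above all control arrays. Ifi35 differed by 0.05 with overlapping groups. The membrane proteins that hinder viral entry went the other way in sign: Ifitm3 differed by -0.09 without overlap (SE 0.040, adjusted p = 0.185) and Ifitm1 by -0.14 with overlap (adjusted p = 0.156). Type I effectors as a class had 5 of 21 tested members higher (23.8%, against 9.68% of all genes tested) and 3 lower (14.3%, against 8.2%), with a median difference of 0.10. The limits given for the shares of all members hold for these shares too.

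**Figure D4:**
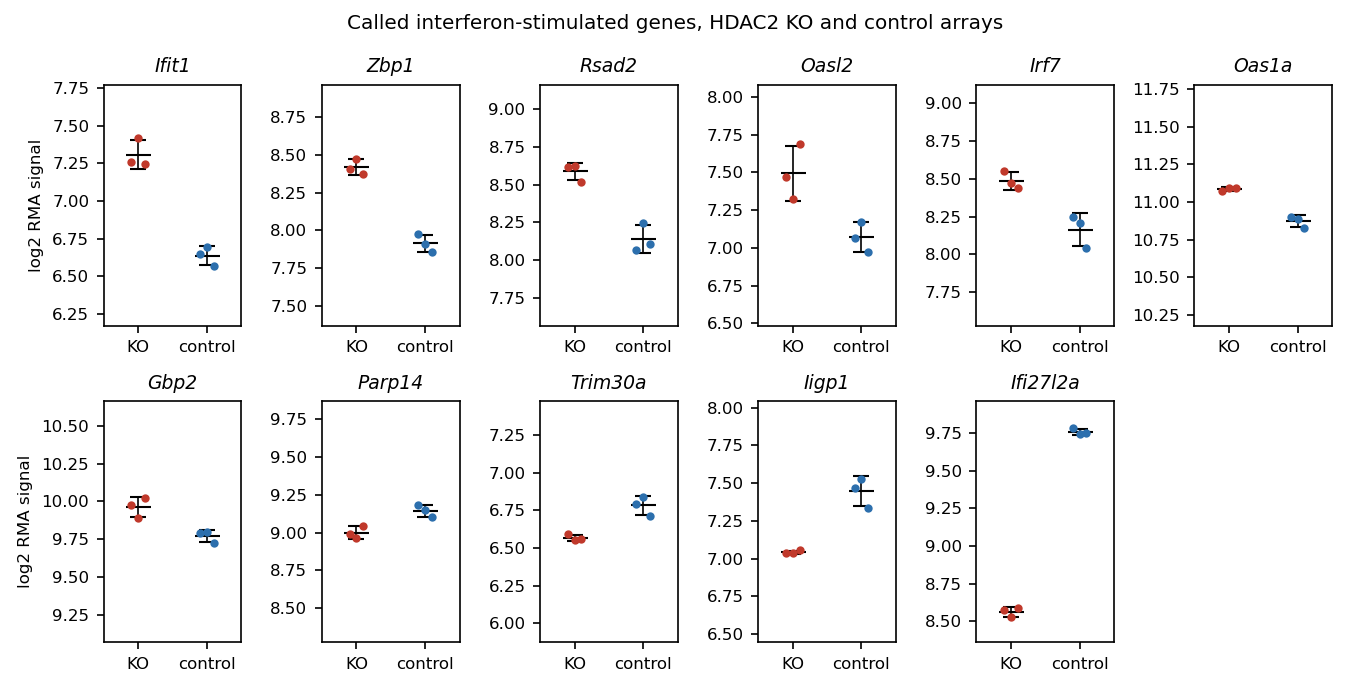
Log2 RMA signal on each array (points) with mean and SD (bars) for the 11 called members, HDAC2 KO left and control right, ordered by the difference. Each panel spans the same height on the log2 axis, so the gap of Ifi27l2a, at 8.56 in HDAC2 KO and 9.76 in control, can be set against the smaller gaps of Oas1a and Parp14.

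The interferon-inducible GTPases attack the membranes around intracellular microbes, and 1 of 6 tested was higher and 1 lower. Each is 16.7% of so small a class, against 9.68% higher and 8.2% lower among all genes tested, and nothing is read from these shares. Gbp2, a guanylate-binding protein, read 9.97, 9.89 and 10.02 on the HDAC2 KO arrays, against 9.79, 9.80 and 9.72 on the control arrays. The groups did not overlap and the rise was 1.14-fold (0.19, SE 0.044, limma adjusted p = 0.021). That call was lost without HDAC2 KO replicate 1 or 3 or control replicate 1 or 3 (adjusted p between 0.0558 and 0.0732), and its probes can match more than 1 transcript (suffix _x_at). The second Gbp2 probe set differed by 0.17 and was not called (adjusted p = 0.0543 in the fit that left such probe sets out). Gbp3 differed by 0.02 with overlapping groups (adjusted p = 0.809), and Gbp6 lay under the filter at 6.62 in HDAC2 KO and 6.67 in control. Gbp7, the neighbour of Gbp3 on chromosome 3 and no member, fell by 0.27 on the log2 scale (SE 0.033, limma adjusted p = 0.00102).

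Of the immunity-related GTPases, Iigp1 fell. Iigp1 coats the vacuoles of intracellular parasites. It read 7.04, 7.04 and 7.05 on the HDAC2 KO arrays, against 7.47, 7.53 and 7.34 on the control arrays. The HDAC2 KO values were nearly the same on all 3 arrays and lay below every control value (-0.40, SE 0.050, 1.32-fold, limma adjusted p = 0.00119). Its second probe set fell too (-0.32, adjusted p = 0.0415 in the fit of all probe sets). A probe set listed for both Tgtp2 and Tgtp1, GTPases of the same family, read 7.05, 7.18 and 7.11 on the HDAC2 KO arrays, against 8.11, 8.01 and 8.06 on the control arrays, a 1.92-fold difference (-0.94, SE 0.055, adjusted p = 0.000128 in the fit of all probe sets). This signal cannot be given to either gene. The regulatory GTPases Igtp, Irgm1 and Irgm2 differed by -0.09, -0.05 and 0.05 with overlapping groups (adjusted p between 0.214 and 0.581). Mx1 and Mx2, dynamin-like GTPases against RNA viruses, lay under the filter, at 5.96 and 6.12 in HDAC2 KO and 5.86 and 6.19 in control.

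Of 15 members with several probe sets, 9 had all of them on 1 side of 0. The share over all genes with several probe sets was not computed, so nothing is read from this count. None of the 15 had probe sets called in opposite directions, but only Iigp1, Rsad2 and Zbp1 had any called. When all 45037 probe sets were tested without the filter, 9 of the 62 probe sets of members (14.5%) were called, against 3.8% of all probe sets. Of these 6 were higher, against a background of 1.72%, and 3 lower, against 2.08%. The excess was not tested, and members were chosen with earlier results of these data known. The called probe sets belonged to 6 genes: Ifit1, Zbp1, Rsad2, Irf7, Ifi27l2a and Iigp1. With the replicate number as a block, 4 of the 62 were called, against 2.06% of all probe sets under the same block.

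**Figure D5:**
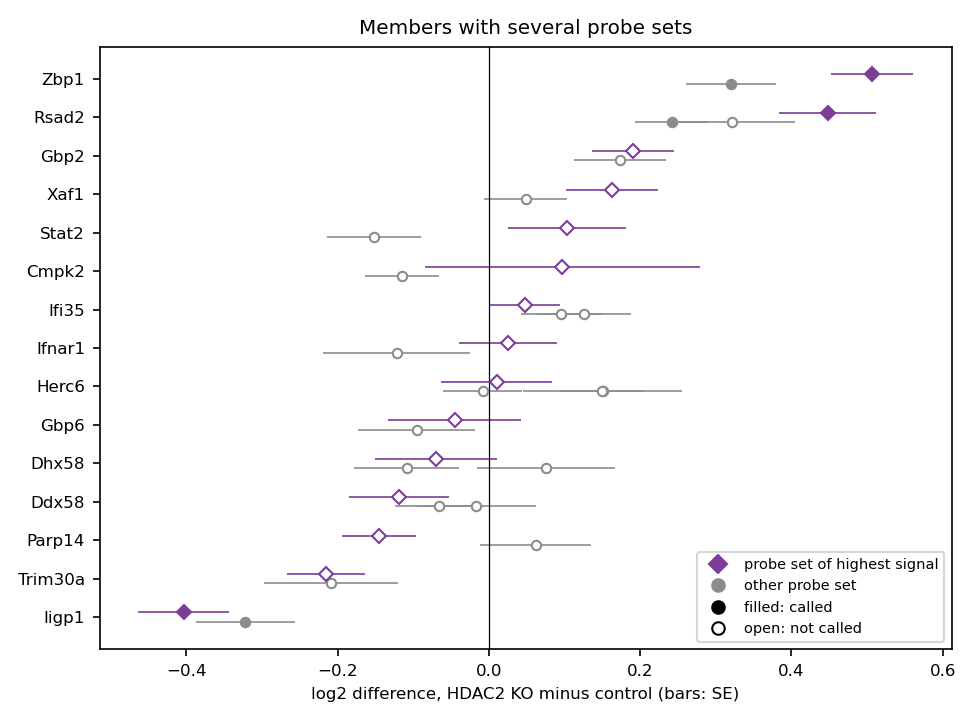
Log2 difference, HDAC2 KO minus control, with SE, for each probe set of the 15 members that have several, in the fit of all probe sets. Diamonds are the probe sets of highest signal, circles the others, and filled symbols were called. The probe sets of Zbp1, Rsad2, Trim30a and Iigp1 lie on the same side of 0, and those of Parp14 and Stat2 do not.

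Other interferon-induced genes, a list of 55 that are no members, were also mixed: of 33 tested, 3 rose, 3 fell and 27 were not called, with a median difference of 0.02. Ddx60, a helicase-like antiviral factor, rose, with 7.04, 7.01 and 7.13 on the HDAC2 KO arrays, against 6.66, 6.49 and 6.45 on the control arrays (1.44-fold, SE 0.060, limma adjusted p = 0.000775). With a control mean of 6.54 it passed the filter through the HDAC2 KO arrays, and without the filter its adjusted p was 0.00413. Tap1, a subunit of the peptide transporter that loads MHC class I, was 1.22-fold higher (0.29, SE 0.048, adjusted p = 0.00505) and Lgals3bp 1.11-fold higher (adjusted p = 0.0327). Slfn2, a schlafen gene needed for T cell quiescence in mice, was 1.31-fold lower (-0.38, SE 0.051, adjusted p = 0.00156), and besides Gbp7 the nuclear body gene Sp100 fell, 1.17-fold (adjusted p = 0.00406). Of the genes of this list under the filter, Cxcl9, a chemokine induced by interferon gamma that attracts T cells, read 5.64, 6.12 and 5.85 on the HDAC2 KO arrays, against 6.90, 6.87 and 6.62 on the control arrays, and was lower in the test without the filter (-0.92, adjusted p = 0.00658). Nlrc5, an activator of MHC class I genes, was also lower there (-0.44, adjusted p = 0.00418). Both were low in all HDAC2 KO arrays, without overlap. The fraction of this list that was called, 6 of 33, was near the background of 17.9%.

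The spread of the members between arrays was near that of other genes by the median and wider by the root mean square. The root mean square gives most weight to the widest genes. Cmpk2, with an SD of 0.38 in HDAC2 KO, was the widest member there, so the wider value is not read as a trait of the members. Their median SD was 0.051 in HDAC2 KO and 0.048 in control, against 0.051 in HDAC2 KO and 0.043 in control over all genes tested. The root mean square deviation from the group mean was larger for members than for all genes on 5 of the 6 arrays, most on HDAC2 KO replicate 2 (0.0968 for members, 0.0799 for all genes) and replicate 3 (0.082 for members, 0.0658 for all genes). HDAC2 KO replicate 2 was the lowest of its group for 18 of the 32 members (56.3%), against 47.5% of all genes, and control replicate 3 was the lowest of its group for 19 (59.4%), against 57.4%. Relative to the control mean, the median member stood at 0.09, 0.02 and 0.05 on the HDAC2 KO arrays and at 0.03, 0.01 and -0.03 on the control arrays, while the median over all genes lay between -0.02 and 0.01 on every array. Replicate 2 thus showed the smallest median shift of the 3 HDAC2 KO arrays.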

How the data were processed

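RNA of colon samples from 3 HDAC2 KO and 3 control mice was labelled with biotin and hybridised to 1-colour arrays. The deposited values are log2 signals that the authors made with RMA, a method named in the submitters' processing notes with no version. RMA subtracts background, equalises the distributions of the arrays and summarises probes per probe set. Changes in total RNA are therefore lost, and differences at low signal are compressed. The log2 scale was taken from the range of the values, 2.39 to 14.6, with array medians between 6.17 and 6.21. The value table holds neither detection calls nor scan dates, batches of hybridisation were not tested, and precision is limited by the number of arrays.

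Of 45101 probe sets, 64 were array controls. Symbols were taken from GEO's annotation of the platform, under which 34945 probe sets had 1 symbol, 932 several and 9160 none listed. The probe set of highest mean over the 6 arrays stood for each of 18193 genes, and the 10916 genes at or above the 40th percentile of these means, 6.66, were tested with limma (version 3.58.1, R version 4.3.3) by a linear model with group as its sole term and moderated variances without trend, p-values adjusted by Benjamini and Hochberg's method across these genes and a threshold of 0.05. A second fit took all 45037 probe sets without a filter. Control was subtracted from HDAC2 KO in all log2 differences, with n = 3 arrays per group. The filter used the mean over both groups, so a gene can pass through the group where it is high. The fit was tested on simulated data.

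Members and lists were chosen with earlier results of these data known. Named with the value of every array were the called members, and with their differences up to 8 members not called whose groups did not overlap. The called genes of the other pathway lists, up to 6 each, and Ifnar2, Ifngr2, Jak1 and Tyk2 were also named. Cxcl9, Nlrc5, Ifnz, Siglech, Cmpk2 and the probe sets of several symbols were singled out after their values were seen. Same-numbered arrays of the groups deviated together (r between 0.20 and 0.34 over the genes tested, against -0.37 to 0.18 for other pairs). This pairing comes from the correlations, not from a label, and the replicate block was an alternative. Other alternatives changed the filter, the choice of probe set, the normalization, the variance model, array weights, the threshold and the arrays included.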

Additional observations from a re-analysis of the deposited data

How the results depend on the processing

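Over the alternatives no difference changed sign among the called members and those named for lack of overlap. The groups of all these members did not overlap, so leaving out an array could not change a sign. Settings that changed only the filter, the variance model, the block or the threshold kept the same difference. Nothing is therefore read from the constant signs. Of 315 values of single members under an alternative, 279 kept their side of the threshold, 24 called values lost it and 12 values gained it. At the stricter threshold of an adjusted p under 0.01, Gbp2, Parp14 and Oasl2 lost their call. Apart from that threshold, Gbp2 and Parp14 lost it in 7 and 9 of 16 alternatives, Oasl2 in 3 of 15, and Oas1a and Trim30a in 1 each, the test of each probe set on its own. Testing each probe set on its own gave 926 genes called, 4 members higher and 2 lower. With array weights, 3506 genes were called, 13 members were higher and 13 other pathway genes were called, against 8. The filter at the 60th percentile left 2 members lower and 3 other pathway genes called, since fewer genes were tested. The threshold of 0.01 left 954 genes called. The number of genes called lay between 1130 and 2107 without single arrays. Hdac2 lost its call when each probe set was tested on its own (-0.21) and with cross-matching probe sets removed (-0.22). With the replicate number as a block, 4 of 62 probe sets of members were called instead of 9 and Parp14 lost its call. The block changed no other call of a named member in the gene fit. The causes of these changes, other than the smaller number of genes tested, were not tested. Signal limits the 9 members and all 9 interferon ligand genes under the filter.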
